A study of Mus musculus with 2 samples.

Results

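The genes described here are Adgre1, which encodes F4/80, its relatives Adgre4 and Adgre5, the integrin α-subunit genes Itgal, Itgam, Itgax and Itgad, and Itgb2, which encodes the β2 subunit. They were chosen by symbol and are 8 of the 26124 genes in the matrices. The question was which spleen cells that bound anti-F4/80 beads carried the Adgre1 transcript, which were recovered with little of it, and how the beta-2 integrin transcripts were spread over the same cells. Spleens of 2 mice, aged between 12 and 16 weeks by the study's methods, were freed of erythrocytes, enriched for F4/80-binding cells with antibody-coated magnetic beads and sequenced as 1 droplet library each. By its label the wild-type mouse is a non-sickling control that lacks mouse α-globin (Hba−/−), is Hbb+/− and is hemizygous for the transgene Tg(HBA-HBBs)41Paz. The SCD mouse, for sickle cell disease, is labelled Hba−/−, Hbb−/− and homozygous for that transgene, so by their labels both share the α-globin deletion and the human transgene. With 1 mouse per condition there is no replicate, no p-value is given, and every interval is a 95% interval that covers counting error only. The beads select on the protein, and no unselected spleen was analysed here, so the values are levels among recovered cells and not an enrichment over the spleen.

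F4/80, CD97 (the product of Adgre5) and the Adgre4 product are adhesion receptors of the G protein-coupled family with EGF-like domains outside the cell. In the mouse spleen F4/80 is the classical surface marker of red pulp macrophages, the cells that clear aged erythrocytes. Each beta-2 integrin pairs the common chain CD18 (Itgb2) with an α chain, CD11a (Itgal), CD11b (Itgam), CD11c (Itgax) or CD11d (Itgad), and these pairs hold leukocytes to ICAM proteins, to complement fragments or to other cells. CD11b is known as a marker of monocytes and neutrophils, CD11c of dendritic cells (DCs), and CD11d of splenic macrophages.

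In the GENCODE M21 annotation of GRCm38 all 8 are protein-coding genes. Adgre1 lies at chr17:57358691-57483527 and Adgre4 at chr17:55749984-55853662, both on the plus strand. Adgre5 lies at chr8:83723251-83741326 on the minus strand and Itgb2 at chr10:77530252-77565708 on the plus strand. The α-subunit genes are all on the plus strand of chromosome 7, Itgal at chr7:127296260-127335138, Itgam at chr7:128062640-128118491, Itgax at chr7:128129547-128150657 and Itgad at chr7:128154376-128223816. Itgam, Itgax and Itgad are direct neighbours, with gaps of 11.05 kb and 3.718 kb, whereas Itgal lies 727.5 kb before Itgam. Promoters of 3 of the 8 genes matched in RefSeq. Only these could be shown, and no link between their letters and the cell groups below was tested. Each runs from 250 bases before to 50 after the annotated start. Capitals mark GAGGAA or its reverse complement TTCCTC, letters known from the core bound by the myeloid factor PU.1.
Itgam promoter, GRCm38.p6, chr7:128062390-128062689, plus strand: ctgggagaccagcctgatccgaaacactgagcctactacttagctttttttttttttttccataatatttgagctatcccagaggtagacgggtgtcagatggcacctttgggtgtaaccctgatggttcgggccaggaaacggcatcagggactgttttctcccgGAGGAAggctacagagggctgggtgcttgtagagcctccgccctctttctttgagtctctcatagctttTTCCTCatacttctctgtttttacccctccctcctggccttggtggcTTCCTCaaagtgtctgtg
Itgax promoter, GRCm38.p6, chr7:128129300-128129599, plus strand: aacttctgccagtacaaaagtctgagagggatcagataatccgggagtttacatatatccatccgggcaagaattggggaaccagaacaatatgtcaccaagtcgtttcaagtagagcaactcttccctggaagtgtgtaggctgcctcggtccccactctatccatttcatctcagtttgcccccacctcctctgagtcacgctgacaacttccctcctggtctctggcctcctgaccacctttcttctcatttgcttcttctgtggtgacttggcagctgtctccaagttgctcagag
Adgre4 promoter, GRCm38.p6, chr17:55749734-55750033, plus strand: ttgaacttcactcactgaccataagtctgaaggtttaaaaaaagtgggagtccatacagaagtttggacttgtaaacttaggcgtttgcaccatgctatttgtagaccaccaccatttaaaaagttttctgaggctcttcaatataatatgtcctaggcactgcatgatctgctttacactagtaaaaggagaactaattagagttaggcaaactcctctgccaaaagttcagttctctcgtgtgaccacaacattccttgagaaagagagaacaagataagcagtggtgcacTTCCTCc
The Itgam window held 3 matches, which began at -84, -15 and 32 bases from the start, the Adgre4 window held 1 match at 43, and the Itgax window held none. Of 32851 RefSeq promoters of the same length 28.3% held at least 1 match and 0.685% at least 3. A match is a string of letters and not a measured site.

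The library labelled wild-type held 145953464 unique molecular identifiers (UMIs) in 24144 barcodes and the SCD-labelled library 73986356 in 15442. After the filters 19419 and 12280 cells remained, with medians of 4115 and 4570 UMIs, and 65 of 31634 distinct barcodes of kept cells occurred in both libraries. The libraries went against their labels in the globin genes. In erythroid-like cells the mouse gene Hbb-bs stood at 159.8 UMIs per 1000000 UMIs (CPM) in the wild-type-labelled library and at 46890 CPM in the SCD-labelled library, whose mouse should lack it. Hbb-bt stood at 307 and 15931 CPM in the same cells. The mouse α-globin gene Hba-a1, deleted in both mice by the labels, was at 28682 CPM and 30928 CPM. Whether the genotypes, the labels or the alignment of transgene reads account for these values was not tested. The libraries are therefore called by their labels throughout, and any direction between them rests on those labels. The cells formed 26 clusters, in a clustering that left out all 8 genes. Names came from markers, none of which is among the 8 genes, and 6 clusters stayed unnamed. Red pulp macrophage-like (RPM-like) cells came from different clusters in the libraries, the wild-type-labelled ones almost wholly from cluster 1 (led by Abcc5, Ank2 and Mertk) and cluster 2 (Marco, Cd5l and Selenop), the SCD-labelled ones almost wholly from cluster 25 (Rgs1, Adamdec1 and Iigp1). All 8 red pulp macrophage markers were found in them, at a summed 22548 CPM and 19969 CPM. Erythroblastic island-like (EBI-like) clusters carried macrophage and erythroid markers together, and these too differed between the libraries, with clusters 5, 10, 11, 13 and 17 holding most EBI-like cells of the wild-type-labelled library and cluster 19 holding 639 of the 943 of the SCD-labelled library.

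Adgre1 was highest in RPM-like cells of both libraries and lowest in erythroid-like cells and in cluster 0 (led by Cd79a, Igkc and Ms4a1), a B lymphocyte-like cluster that served as the reference for free RNA, the RNA of other cells that enters a droplet with the liquid. In RPM-like cells Adgre1 stood at 683 CPM (671 to 696; 11589 UMIs in 4722 cells) in the wild-type-labelled library and at 755 CPM (736 to 775; 5641 UMIs in 1618 cells) in the SCD-labelled library. In EBI-like cells it was 461 CPM (454 to 468) and 452 CPM (432 to 473). In the B reference cells it was 78.4 CPM (64.3 to 94.8) and 81.5 CPM (74.4 to 89.1), so the RPM-like level was 8.71 times (7.20 to 10.6) and 9.27 times (8.45 to 10.2) the reference. The macrophage-bearing groups therefore stood far above the cells that should lack F4/80, in both libraries.

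Monocyte-like and DC-like cells lay between these ends. In Ly6c-low monocyte-like cells, the patrolling kind, Adgre1 was at 379.8 CPM (351 to 411) in the wild-type-labelled library and 328 CPM (312 to 345) in the SCD-labelled library. In Ly6c-high monocyte-like cells, the classical kind, it was 267 CPM (258 to 277) and 176 CPM (165 to 188). That class also holds cluster 12, led by Mpo, Prtn3 and Elane, with 433 wild-type-labelled and 28 SCD-labelled cells. Its main cluster 9 alone had 305 and 174 CPM, so the place of the class in the order below depends on this mixture. Ccr7-positive DC-like cells, named from genes of mature migrating DCs, had 319.7 CPM (297 to 344) and 216 CPM (199.8 to 233). In the wild-type-labelled library the order was RPM-like, EBI-like, Ly6c-low monocyte-like and Ccr7-positive DC-like, each interval apart from the next, then B lymphocyte-like, Ly6c-high monocyte-like and T lymphocyte-like cells, whose neighbours in the order overlapped, and last neutrophil-like and erythroid-like cells. In the SCD-labelled library the first 4 places were the same, Ly6c-high monocyte-like cells followed, T lymphocyte-like and B lymphocyte-like cells overlapped, and erythroid-like cells were again last. The whole B lymphocyte-like class, at 285 and 156 CPM, also holds clusters 20 and 21, of which 60.8% and 64.2% of cells were marked as doublets and in which Adgre1 stood between 248.5 and 355 CPM. The T lymphocyte-like class had mixed markers. Its T lymphocyte markers summed to 1315 and 1758 CPM in the wild-type-labelled and SCD-labelled libraries, and its neutrophil markers to 11975 and 1837 CPM.

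**Figure D1:**
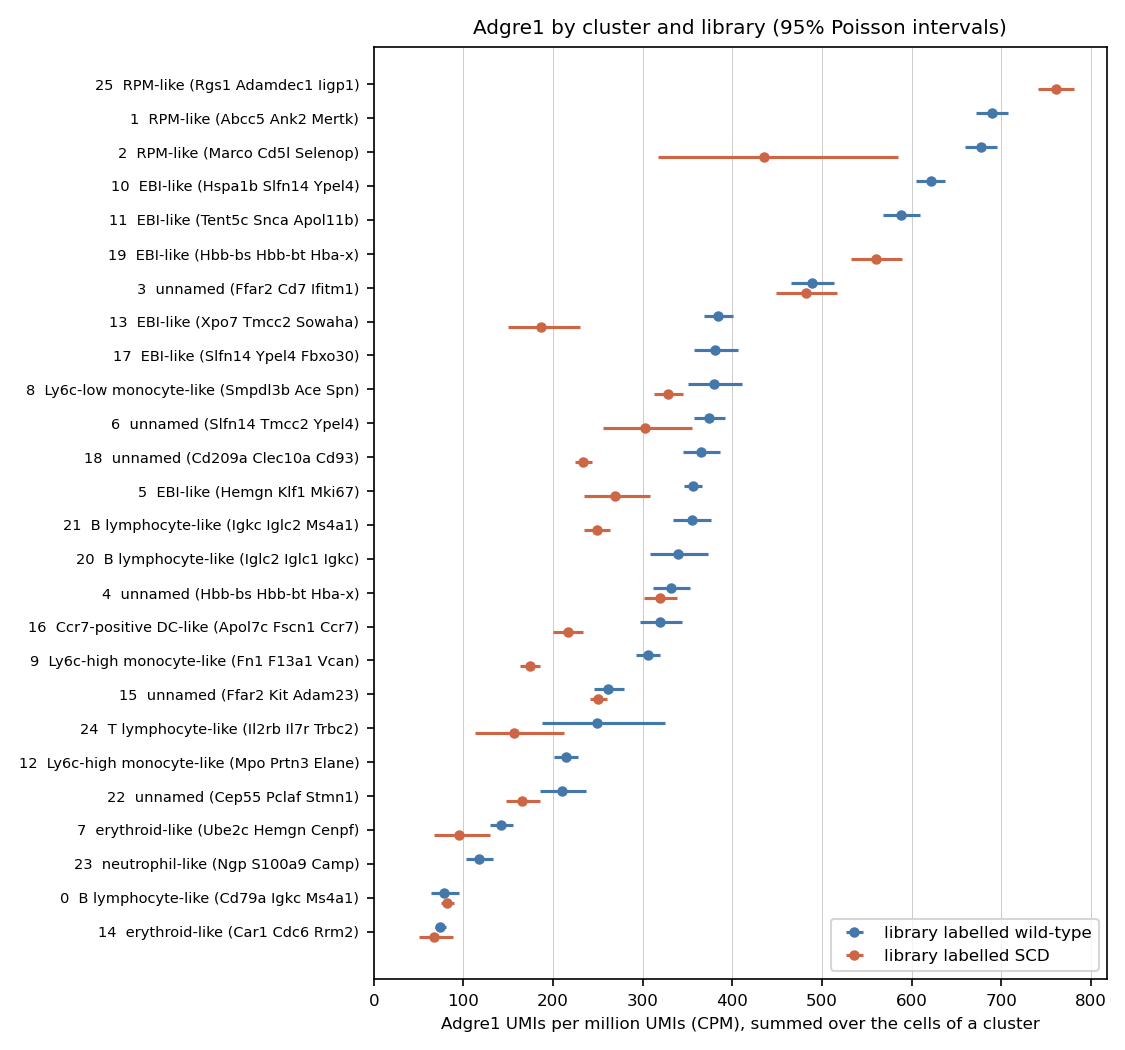
Adgre1 in CPM (horizontal axis, linear) for each cluster with at least 50 cells in a library (rows, with the class and 3 leading genes), as points with 95% Poisson intervals, blue for the wild-type-labelled library and orange for the SCD-labelled library. The RPM-like clusters 1 and 25 stand at 689.6 and 761 CPM, the erythroid-like cluster 14 at 74.0 and 67.4 CPM, and the B lymphocyte-like cluster 0 at 78.4 and 81.5 CPM.

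At equal depth the same picture held per cell. Cells were thinned to 1000 UMIs each, which left out 1032 and 281 shallower cells, 687 and 149 of them RPM-like. An Adgre1 UMI was then found in 29.97% of cells (29.3 to 30.6) of the wild-type-labelled library and 22.5% (21.8 to 23.3) of the SCD-labelled library, against 64.4% and 55.2% without thinning. Among RPM-like cells the thinned share was 47.2% (45.7 to 48.8) and 48.9% (46.4 to 51.5), against 6.94% (4.91 to 9.47) and 7.40% (6.20 to 8.74) in the B reference cells. Without thinning these shares were 70.9% and 78.9% at median depths of 2138 and 4101 UMIs, and 15.6% and 19.1% in the reference at 2197 and 2895 UMIs.

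Few clusters had as low a share as the reference. Of the other clusters with at least 50 cells in a library, 19 of 23 in the wild-type-labelled library and 13 of 18 in the SCD-labelled library had a thinned share whose interval lay wholly above that of the reference. The 4 others in the wild-type-labelled library were the erythroid-like clusters 7 and 14, the neutrophil-like cluster 23 and the T lymphocyte-like cluster 24. In the SCD-labelled library the 5 others were clusters 7, 14 and 24 again, the EBI-like cluster 13 and the unnamed cycling cluster 22. Several clusters above the reference held many cells marked as doublets, under a different rule in each library. In the SCD-labelled library these were 68.7% of cluster 3, 79.4% of cluster 4 and 76.5% of cluster 5. Clusters 6 and 21 there had 86.4% and 89.2%. In the wild-type-labelled library clusters 6, 12 and 20 had 60.1%, 43.4% and 60.7%. The part of doublets in the Adgre1 shares was not tested. The thinned share with an Adgre1 UMI was 9.52% (7.998 to 11.2) and 7.69% (3.90 to 13.3) in erythroid-like cells as a class. In neutrophil-like cells of the wild-type-labelled library it was 8.17% (5.13 to 12.2). Each of these intervals overlapped that of the reference. By CPM, which uses all UMIs, the erythroid-like class had 1.22 times (0.995 to 1.498) and 0.939 times (0.743 to 1.18) the reference level of Adgre1, the erythroid-like cluster 14 had 0.943 times (0.765 to 1.17) and 0.827 times (0.612 to 1.10), and the erythroid-like cluster 7 had 1.80 times (1.46 to 2.25) and 1.16 times (0.813 to 1.62). Neutrophil-like cells of the wild-type-labelled library had 1.496 times (1.19 to 1.90), so these and cluster 7 of that library stood somewhat above the reference. T lymphocyte-like cells of that library stood further above it, at 3.18 times (2.25 to 4.44). In the SCD-labelled library clusters 13, 22 and 24 had 187, 166 and 157 CPM, against 81.5 CPM in the reference. Their shares rest on only 145, 198 and 91 thinned cells. Cells of all these groups were recovered after bead enrichment all the same, and the beads and the erythrocyte lysis bear on how many there were. B lymphocyte-like cells were 5.81% of kept cells (5.49 to 6.15) in the wild-type-labelled library and 19.2% (18.5 to 19.9) in the SCD-labelled library, and erythroid-like cells 6.88% (6.53 to 7.24) and 1.16% (0.982 to 1.37).

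**Figure D2:**
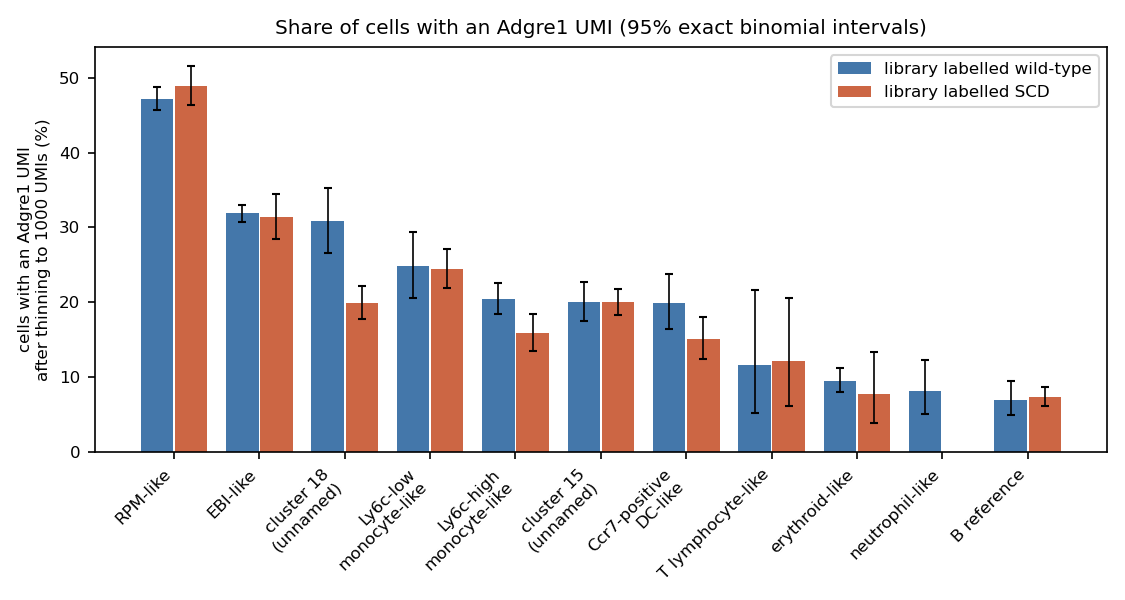
Share of cells with an Adgre1 UMI after thinning each cell to 1000 UMIs (vertical axis, %, from 0) by class or unnamed cluster, with 95% exact binomial intervals, blue for the wild-type-labelled library and orange for the SCD-labelled library; neutrophil-like cells of the latter, 2 in all, are not drawn. RPM-like cells stand at 47.2% and 48.9%, and erythroid-like, neutrophil-like and B reference cells between 6.94% and 9.52%.

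The Adgre1 transcripts of each library came mostly from cells other than RPM-like cells. RPM-like cells held 27.0% of the Adgre1 UMIs of the wild-type-labelled library with 15.8% of all UMIs, and 28.5% in the SCD-labelled library with 11.5% of all UMIs. EBI-like cells held 40.1% of the Adgre1 UMIs in the wild-type-labelled library and 9.38% in the SCD-labelled library, where they were 33.1% and 7.68% of cells. The 6 unnamed clusters held 15.9% and 36.7%. Clusters 15 and 18 are described by number because they were large in the SCD-labelled library. Cluster 15 was led by Ffar2, Kit and Adam23 and passed the limit for conventional DC markers but kept no name because Kit is a progenitor marker, and cluster 18 was led by Cd209a, Clec10a and Cd93. Adgre1 was at 262 CPM (245 to 279) and 250.5 CPM (241 to 260.3) in cluster 15, and at 365 CPM (344 to 386) and 234 CPM (224 to 243) in cluster 18, of whose cells 28.8% were marked as doublets.

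Within RPM-like cells, the share of thinned cells with an Itgad UMI was similar with and without an Adgre1 UMI. Thinned cells without an Adgre1 UMI include cells that lost it in the thinning, so a link could be hidden. An Itgad UMI was found in 33.0% of thinned RPM-like cells with an Adgre1 UMI and in 32.5% of those without in the wild-type-labelled library, and in 57.7% and 56.4% in the SCD-labelled library. In EBI-like cells the shares differed more, 26.1% with and 19.6% without in the wild-type-labelled library and 35.8% and 27.2% in the SCD-labelled library. These classes pool clusters of different levels. In the wild-type-labelled library the shares were 30.3% with and 29.4% without in the EBI-like cluster 10, and 28.3% and 25.7% in cluster 11. They were 24.7% and 18.2% in cluster 5, 19.2% and 12.7% in cluster 13, and 21.8% and 14.3% in cluster 17. In the SCD-labelled library they were 40.4% and 34.9% in cluster 19, and 18.8% and 20.6% in cluster 5. Cluster 13 there had 25.0% and 9.6%, the former from 20 cells. For Itgb2 the shares in RPM-like cells were 21.9% with and 18.6% without in the wild-type-labelled library, and 28.9% and 22.8% in the SCD-labelled library. No test was made of these shares.

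Low Adgre1 levels were set beside Vcam1, an adhesion molecule abundant in splenic macrophages, because RNA that comes from a common source keeps the counts of its genes in a fixed ratio. Vcam1 is also 1 of the 8 markers by which RPM-like cells were named. Vcam1 stood at 8443 CPM in RPM-like cells of the wild-type-labelled library and 8176 CPM in those of the SCD-labelled library, and at 984 CPM and 684 CPM in the B reference cells. RPM-like cells had 80.9 Adgre1 UMIs per 1000 Vcam1 UMIs (79.4 to 82.5) in the wild-type-labelled library and 92.4 (89.9 to 94.9) in the SCD-labelled library. EBI-like cells had 84.0 (82.7 to 85.3) and 91.4 (87.1 to 95.9), erythroid-like cells 90.9 (85.1 to 97.0) and 84.7 (67.7 to 105), and neutrophil-like cells of the wild-type-labelled library 80.7 (70.3 to 92.3). The B reference cells had 79.7 (64.9 to 97.1) in the wild-type-labelled library and 119 (108 to 131) in the SCD-labelled library. Across these groups, which span a wide range of Adgre1 levels, the ratio ran from 79.7 to 90.9 in the wild-type-labelled library and from 84.7 to 119 in the SCD-labelled library. It lay above the RPM-like interval in the EBI-like and erythroid-like cells of the wild-type-labelled library and in the B reference cells of the SCD-labelled library, and overlapped it in the others. The part of free RNA in these Adgre1 levels was not tested.

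In monocyte-like cells, DC-like cells and the unnamed clusters 15 and 18 Adgre1 exceeded that ratio. Ly6c-low monocyte-like cells had 135 Adgre1 UMIs per 1000 Vcam1 UMIs (124 to 147) in the wild-type-labelled library and 165 (157 to 174) in the SCD-labelled library. Ly6c-high monocyte-like cells had 143 (138 to 149) and 339 (315 to 365), and Ccr7-positive DC-like cells 109 (101 to 118) and 209 (191 to 227). The highest values were those of cluster 15 with 229.9 (214 to 247) and 426 (407 to 446), followed in the wild-type-labelled library by cluster 22 with 201 (175.5 to 230.03) and in the SCD-labelled library by cluster 9, the main Ly6c-high cluster, with 383 (355 to 414). Of 24 clusters in the wild-type-labelled library 8 had intervals that overlapped that of RPM-like cells, 15 lay above and 1 below, and 7 stood at 1.5 times the RPM-like ratio or more. Of 19 clusters in the SCD-labelled library 9 overlapped, 10 lay above, and 8 stood at 1.5 times or more. These 10 include the B reference cluster itself. In that library a ratio above that of RPM-like cells therefore does not by itself set a group apart from the reference. A group that transcribes Vcam1 itself would have its ratio lowered, and this was not tested.

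**Figure D3:**
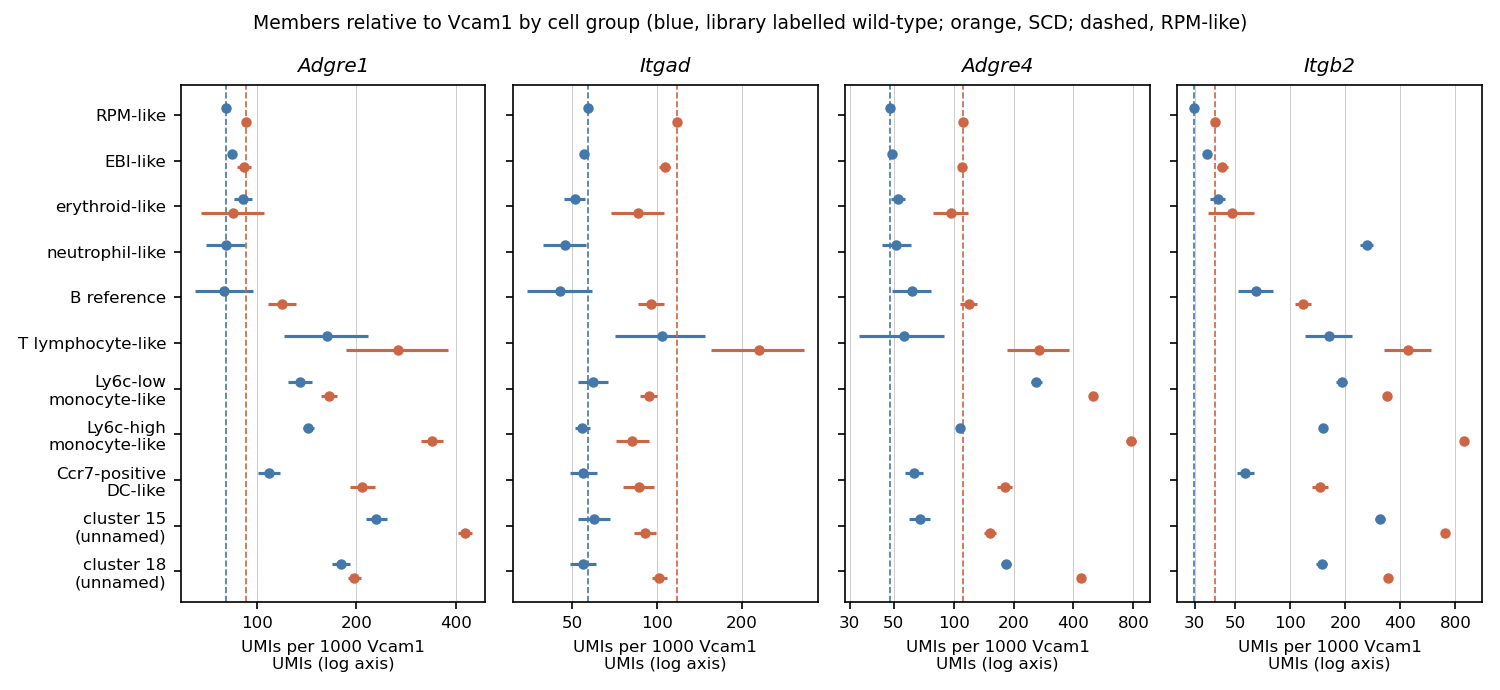
UMIs of Adgre1, Itgad, Adgre4 and Itgb2 per 1000 Vcam1 UMIs (horizontal axes, log scale) by class or unnamed cluster (rows), as points with 95% intervals, blue for the wild-type-labelled library and orange for the SCD-labelled library; dashed lines mark RPM-like cells. Itgad lies between 45.5 and 59.8 in the wild-type-labelled library outside T lymphocyte-like cells, whereas Adgre1 reaches 426 in cluster 15 of the SCD-labelled library.

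Adgre4, a receptor related to F4/80 and known from myeloid cells, led in Ly6c-low monocyte-like cells and not in macrophages. It stood there at 733 CPM (692 to 775) in the wild-type-labelled library and 995 CPM (967 to 1024) in the SCD-labelled library. RPM-like cells had 405 CPM (395 to 415) and 909 CPM (888 to 931), EBI-like cells 269 CPM and 546 CPM, and Ly6c-high monocyte-like cells 201 CPM and 405 CPM. The B reference cells had 60.8 CPM and 81.5 CPM. Per 1000 Vcam1 UMIs, Adgre4 stood at 48.0 and 111 in RPM-like cells, at 261 and 501 in Ly6c-low monocyte-like cells, and at 52.5 (48.3 to 57.1) and 96.7 (78.4 to 118) in erythroid-like cells, whose intervals overlapped those of RPM-like cells.

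Adgre5 encodes CD97, a receptor of many leukocytes that binds CD55. It was highest in monocyte-like cells, at 418 CPM (387 to 449.9) and 651 CPM (629 to 674) in the Ly6c-low and 212 CPM (204 to 221) and 642 CPM (621 to 664) in the Ly6c-high kind. RPM-like cells had 101 CPM (96.1 to 106) and 150.1 CPM (141 to 159), no more than the 150.3 CPM (130.4 to 172) and 161 CPM (151 to 172) of the B reference cells, and erythroid-like cells 15.1 and 16.6 CPM. The thinned share of RPM-like cells with an Adgre5 UMI was 7.86% and 12.6%, against 11.4% and 12.5% in the B reference cells. CD97 is known from lymphocytes too, so for this gene the B reference does not measure free RNA.

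Among the α-subunit genes, Itgad was the macrophage gene. In RPM-like cells it stood at 480.5 CPM (470.1 to 491) in the wild-type-labelled library and 960.3 CPM (938 to 983) in the SCD-labelled library, in EBI-like cells at 303 CPM (297 to 308) and 526 CPM (504 to 549), and in the B reference cells at 44.7 CPM (34.2 to 57.4) and 65.1 CPM (58.8 to 72.0). Set against Vcam1 it varied little between groups of the wild-type-labelled library, and more in the SCD-labelled library. Per 1000 Vcam1 UMIs Itgad was 56.9 in RPM-like cells of the wild-type-labelled library and 54.4 (51.2 to 57.7) in Ly6c-high monocyte-like, 54.8 (49.1 to 61.0) in Ccr7-positive DC-like, 59.8 (52.3 to 68.1) in cluster 15 and 45.5 (34.6 to 58.8) in B reference cells. In the SCD-labelled library RPM-like cells had 117 and these groups 81.8, 86.2, 90.7 and 95.2. The exception was the small T lymphocyte-like class, whose markers were mixed, with 104 (71.1 to 147) and 229 (155 to 331) from 35 and 36 Itgad UMIs. Of the other classes drawn beside RPM-like cells and clusters 15 and 18, none had an interval above that of RPM-like cells in either library.

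Itgal, the α chain of LFA-1, which is known from nearly all leukocytes, led in Ly6c-low monocyte-like cells with 1615 CPM (1554 to 1677) and 2001 CPM (1961 to 2041). It was found there in 78.3% and 82.6% of thinned cells. Ly6c-high monocyte-like cells had 317 CPM (306 to 327) and 1138 CPM (1110.1 to 1167), T lymphocyte-like cells 349 CPM and 366 CPM, and B reference cells 136 CPM and 137 CPM. RPM-like cells had 15.9 CPM (14.0 to 17.9) and 31.3 CPM (27.4 to 35.6), under the B reference and above the 7.86 CPM (6.26 to 9.74) and 13.3 CPM (7.61 to 21.6) of erythroid-like cells.

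Itgam was highest in neutrophil-like cells of the wild-type-labelled library, at 481 CPM (451 to 513), with a UMI in 38.5% of thinned cells. Ly6c-high monocyte-like cells had 279 CPM (269 to 289) and 357 CPM (342 to 374), and Ly6c-low monocyte-like cells 185 CPM (165 to 207) and 288 CPM (273 to 304). In RPM-like cells Itgam stood at 5.07 CPM (4.06 to 6.26) and 10.8 CPM (8.61 to 13.5), below the 19.1 CPM (12.4 to 27.9) and 25.8 CPM (21.9 to 30.2) of the B reference cells. Its thinned share there, 0.595% and 1.43%, did not exceed the 1.16% and 2.10% of the reference. Erythroid-like cells had still less, 3.22 CPM (2.23 to 4.50) and 4.16 CPM (1.35 to 9.71), so for Itgam too the B reference does not measure free RNA, and the RPM-like level lay close to that of erythroid-like cells, with overlapping intervals.

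Itgax belonged to DC-marked cells, most of them in unnamed clusters. Cluster 15 had 279 CPM (262 to 297) and 306 CPM (295 to 316), Ccr7-positive DC-like cells 120.2 CPM (106 to 136) and 211 CPM (195 to 228), and cluster 18 132 CPM (119.7 to 145) and 146 CPM (138 to 153). RPM-like cells had 11.6 CPM (10.0 to 13.4) and 25.8 CPM (22.3 to 29.8), and the B reference cells 2.20 CPM (0.453 to 6.43, from 3 UMIs) and 8.44 CPM (6.26 to 11.1). Cluster 15 held 21.8% of the Itgax UMIs of the wild-type-labelled library, with 5.12% of its cells, and 42.2% of those of the SCD-labelled library, with 17.98% of its cells. The same cluster had the highest ratio of Adgre1 to Vcam1 in both libraries.

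The mix of α-subunit transcripts set the groups apart. Because counts of different genes are not compared as levels here, the share of a subunit among the UMIs of the 4 genes is read across groups and not against another subunit. Itgad made up 93.7% of them in RPM-like cells of the wild-type-labelled library and 93.4% in the SCD-labelled library, 78.4% and 79.5% in EBI-like cells and 78.8% and 76.9% in erythroid-like cells. Itgal made up 78.2% and 78.4% in Ly6c-low monocyte-like cells, and 45% and 73.6% in Ly6c-high monocyte-like cells. Itgam made up 65.8% in neutrophil-like cells of the wild-type-labelled library, and Itgax 48.9% and 47.8% in cluster 15. In Ccr7-positive DC-like cells the Itgax share was 36.2% and 55.5%, and the Itgad share 48.4% and 23.5%.

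**Figure D4:**
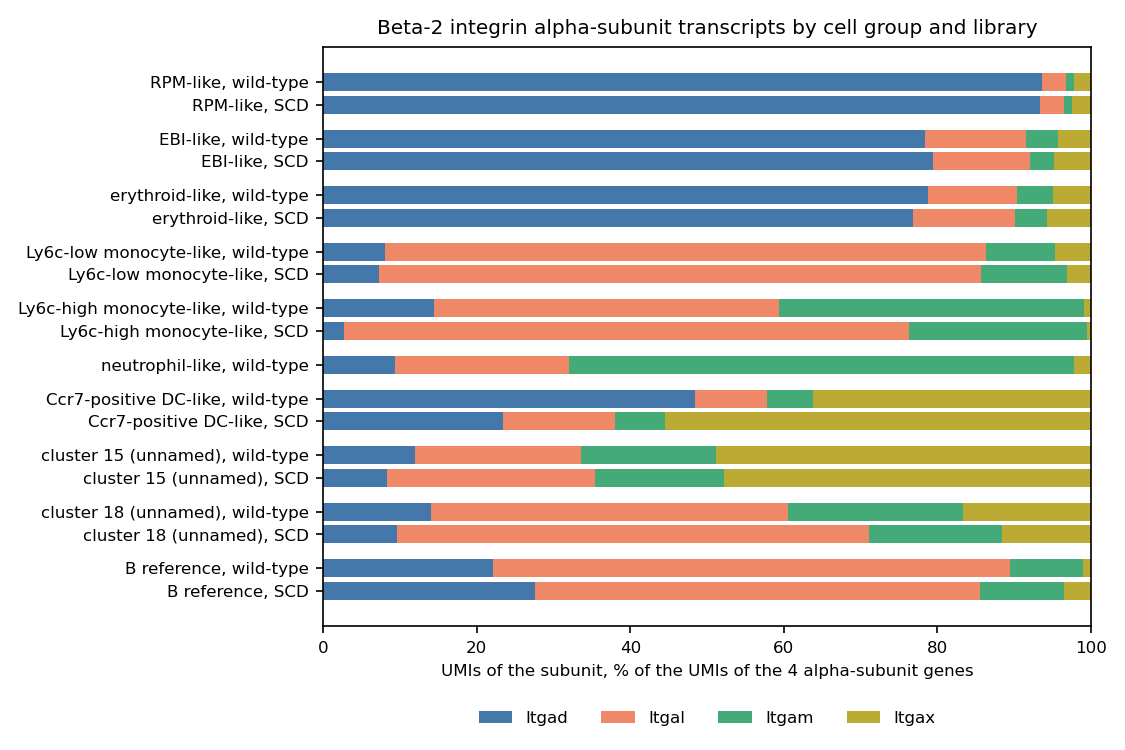
UMIs of Itgad, Itgal, Itgam and Itgax as a percentage of the UMIs of these 4 genes (horizontal axis, stacked bars from 0 to 100%) by class or unnamed cluster and library. Itgad fills over 90% of the bars of RPM-like cells in both libraries and Itgal over 75% of those of Ly6c-low monocyte-like cells.

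Itgb2, the chain that every one of these α subunits needs, was found in every class. It was highest in Ly6c-low monocyte-like cells, at 537 CPM (502 to 573) in the wild-type-labelled library and 671 CPM (648 to 695) in the SCD-labelled library. Cluster 15 had 354 and 414 CPM, neutrophil-like cells of the wild-type-labelled library 381 CPM (354.5 to 409), and Ly6c-high monocyte-like cells 281 CPM (271 to 291) and 462 CPM (444 to 480.2). RPM-like cells had 251 CPM (243 to 258) and 315 CPM (303 to 328), the B reference cells 63.8 CPM and 80.5 CPM, and erythroid-like cells 42.0 CPM and 43.3 CPM. Per 1000 Vcam1 UMIs it was lower in RPM-like cells than in any other class, at 29.7 and 38.6, and reached 889 in Ly6c-high monocyte-like cells of the SCD-labelled library. Thinned cells with a UMI of any of the 5 integrin genes were 46.8% and 71.2% of RPM-like, 93.6% and 94.6% of Ly6c-low monocyte-like, 24.9% and 24.8% of B reference and 9.37% and 10.5% of erythroid-like cells. Transcripts of at least 2 α-subunit genes in 1 thinned cell were found in 0.843% and 4.08% of RPM-like cells and in 27.6% and 33.9% of Ly6c-low monocyte-like cells.

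Between the libraries as a whole, Adgre1 was lower and most integrin genes were higher in the SCD-labelled library. Over all kept cells Adgre1 stood at 400.1 CPM in the wild-type-labelled library and 305 CPM in the SCD-labelled library, a log2 ratio of -0.39 (-0.42 to -0.37), while the median of 13015 genes was 0.18. Itgal was higher by 1.98 on the log2 scale (1.95 to 2.01), Itgax by 1.45 (1.40 to 1.51), Adgre5 by 1.44 (1.41 to 1.47), Itgam by 0.89 (0.85 to 0.94), Adgre4 by 0.79 (0.77 to 0.81) and Itgb2 by 0.63 (0.60 to 0.66), whereas Itgad differed by 0.03 (-0.00 to 0.05). Of the 8 genes 3 were at least 2-fold higher and 0 at least 2-fold lower, where 12.0% of all genes tested were at least 2-fold higher and 9.78% at least 2-fold lower. The cell groups recovered differed as well, and fewer cells of a class cannot be told apart from less RNA per cell in a whole-library ratio.

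Within RPM-like cells, which came from almost separate clusters, Adgre1 had the smallest ratio of the 8 genes. Adgre1 differed by 0.14 (0.10 to 0.19), less than the 0.20 of the median gene of 9998. In cluster 2, the only RPM-like cluster with at least 50 cells in each library, Adgre1 went the other way, with -0.64 (-1.10 to -0.21) from 3625 and 64 cells, while Itgad had 0.58 (0.19 to 0.94) and Adgre4 0.75 (0.37 to 1.11). Adgre4 was higher in the SCD-labelled library by 1.17 (1.12 to 1.22), Itgax by 1.15 (0.86 to 1.45), Itgam by 1.10 (0.64 to 1.55), Itgad by 0.999 (0.95 to 1.05), Itgal by 0.98 (0.72 to 1.24), Adgre5 by 0.57 (0.46 to 0.68) and Itgb2 by 0.33 (0.26 to 0.41). Adgre4, Itgam and Itgax passed 2-fold, and Itgad and Itgal lay just below it. For all genes tested 9.15% were at least 2-fold higher and 4.31% at least 2-fold lower, and none of the 8 was at least 2-fold lower. Itgam had only 86 and 81 UMIs, at a level close to that of erythroid-like cells, and the part of free RNA in its ratio was not tested. The RPM-like values of Itgal, Itgam and Itgax rest on few UMIs, and with other size factors before clustering they were 2.04, 2.25 and 2.13, over 1.5 times as large a fold. The summed level of 6 Ly6c-low monocyte markers in RPM-like cells was 447 CPM in the wild-type-labelled library and 859 CPM in the SCD-labelled library, 6 of 6 found in each, and their part in these ratios was not tested. Condition, mouse and library cannot be told apart.

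The direction of the ratio was not the same in every class. Adgre1 had -0.03 (-0.10 to 0.04) in EBI-like, -0.21 (-0.34 to -0.07) in Ly6c-low monocyte-like, -0.56 (-0.72 to -0.41) in Ccr7-positive DC-like and -0.60 (-0.71 to -0.50) in Ly6c-high monocyte-like cells. Itgad had 0.80 (0.73 to 0.86) in EBI-like but -1.26 (-1.47 to -1.05) in Ly6c-high monocyte-like cells, where Vcam1 went from 1866 CPM to 519 CPM. The EBI-like values compare different clusters. In the EBI-like clusters with at least 50 cells in each library Itgad had 0.05 (-0.17 to 0.26) in cluster 5 and -0.51 (-0.84 to -0.19) in cluster 13, and Adgre1 -0.40 (-0.61 to -0.20) and -1.04 (-1.36 to -0.74), so the higher Itgad of the class was not seen inside them. In cluster 5, however, 35.2% of the wild-type-labelled and 76.5% of the SCD-labelled cells were marked as doublets, under a different rule in each library. In Ly6c-high monocyte-like cells Itgal had 1.85 (1.79 to 1.91) and Adgre5 1.60 (1.52 to 1.67). That class includes cluster 12 (led by Mpo, Prtn3 and Elane), with 433 cells of the wild-type-labelled library and 28 of the SCD-labelled library, and in cluster 9 alone Itgal had 1.55 (1.48 to 1.62), Adgre5 1.46 (1.37 to 1.55), Itgad -1.60 (-1.84 to -1.36) and Adgre1 -0.81 (-0.93 to -0.70). None of these differences between classes was tested, since there is no replicate.

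**Figure D5:**
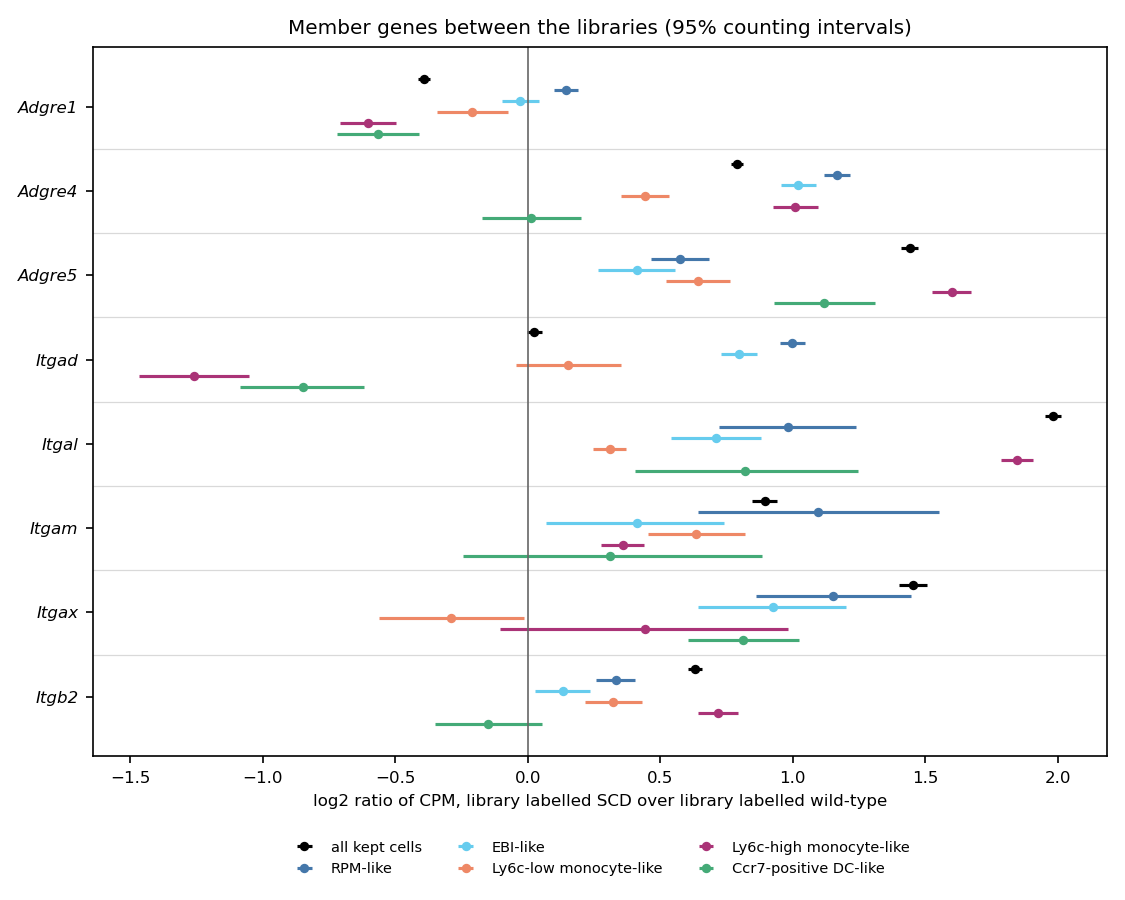
Log2 ratio of CPM, SCD-labelled over wild-type-labelled library (horizontal axis), of the 8 genes (rows) over all kept cells and in 5 classes (colours), with 95% counting intervals; 0 is no difference. Adgre1 lies at -0.39 over all kept cells and 0.14 in RPM-like cells, and Itgad ranges from -1.26 in Ly6c-high monocyte-like to 0.999 in RPM-like cells.

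Other genes of the same system were counted in RPM-like cells from lists chosen by function. Of 10 other leukocyte integrin subunits 6 had at least 100 UMIs, with a median log2 ratio of 0.22. Itga4, the α chain of VLA-4, the receptor of VCAM-1, went from 74.1 CPM in the wild-type-labelled library to 205 CPM in the SCD-labelled library (log2 ratio 1.47, 1.36 to 1.58), and Itga5, of the fibronectin receptor, from 5.31 CPM to 2.41 CPM (-1.14, -1.96 to -0.40). All 12 genes of integrin activation and signalling, such as Tln1 (talin) and Fermt3 (kindlin-3), were measured, with a median of 0.25, and Cytip, which encodes a partner of cytohesin, was past 2-fold, at 49.4 CPM and 120.1 CPM (1.28, 1.14 to 1.42). Of 9 ligands 5 were measured, with a median of 1.16. Cd55, the decay-accelerating factor bound by CD97, had 11.0 and 58.0 CPM (2.39, 2.14 to 2.65), F11r, encoding JAM-A, a ligand of LFA-1, 33.6 and 102 CPM (1.61, 1.45 to 1.77), and C3, the source of the fragment that CD11b and CD11c bind, 8.55 and 19.1 CPM (1.16, 0.82 to 1.51). Cd24a, a surface protein abundant on erythroid precursors, was lower, with 155 and 34.1 CPM (-2.18, -2.37 to -1.996), and the 8 erythroid markers in the same cells summed to 502 and 105 CPM, all 8 found in each library, whose part in the Cd24a value was not tested. Of the 6 myeloid transcription factor genes none passed 2-fold, with a median of 0.19, and Spi1, which encodes PU.1, had 219.5 and 159 CPM (-0.47, -0.57 to -0.37). These counts stand beside the 9.15% and 4.31% of all genes given above. Over all kept cells Itga4 stood at 341 and 778 CPM, Cytip at 145 and 397 CPM and Cd55 at 26.6 and 86.1 CPM. F11r had 24.5 and 40.5 CPM there, and C3 52.0 and 45.8 CPM. In RPM-like cells C3 rests on 145 and 143 UMIs. The part of free RNA in the RPM-like values of these 5 genes was not tested.

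Genes whose levels were most like those of Adgre1 over clusters were found by the Pearson correlation of log2(CPM + 10) over 24 clusters of the wild-type-labelled library and 19 of the SCD-labelled library, taking the lower of both values among 7571 genes. Clusters of 1 library share its free RNA and its depth, so the correlations are descriptions. Sirpa, the receptor of CD47, came first with 0.966, then Acp2 (0.961) and Lipa (0.954), both of lysosomal enzymes, Mcfd2 (0.948), Tmem141 (0.937), Fcgrt (0.936), Trpm2 (0.936), Frmd4b (0.934), Il10rb (0.926) and Erlin2 (0.925). Of the other 7 genes described here Adgre4 reached 0.845 and Itgad 0.828 with Adgre1, and Itgal and Itgam -0.0420 and -0.172. Most like Itgad were Igf1 (0.981), Ctsd (0.981) and Stab2 (0.978). Adgre4 was closest to Csf1r (0.961), Treml4 (0.959) and Lrp1 (0.953), and Adgre5 to Prkcd (0.945), Samhd1 (0.941) and Ifngr2 (0.941). Itgam was closest to Rasgrp4 (0.930), Alox5ap (0.927) and Nhsl2 (0.926), Itgax to Cyp4f16 (0.934), Shtn1 (0.930) and Rtn1 (0.927), Itgal to Il17ra (0.932) and Atp11b (0.924), and Itgb2 to Nfam1 (0.960), Fgr (0.913) and Apobr (0.913).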

How the data were processed

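Gene expression was measured in single spleen cells that bound anti-F4/80 beads, in 2 libraries of 1 mouse each. The authors aligned the reads, counted UMIs with Cell Ranger and deposited these counts as they were, not normalized. According to the methods it was Cell Ranger 4.0.0, while the matrix headers give another release, and the submitters' processing notes give the build GRCm38.p6. No cell annotation was used.

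A barcode was kept as a cell if it had 500 to 5000 genes, less than 15% of its UMIs from mitochondrial genes and less than 30% from genes of ribosomal proteins. Size factors came from scran 1.30.0 (R 4.3.3). The 2000 most variable genes, without the 8 genes, the listed genes, genes of heme, iron, hemoglobin and the sex chromosomes, were reduced to 30 principal components and clustered over 15 neighbours by the Leiden method at resolution 1 (scanpy 1.11.5, python-igraph 0.11.9, Python 3.11.15). Scrublet scored doublets, which were not removed. For the SCD-labelled library its own threshold was used (2150 cells). For the wild-type-labelled library that threshold found 0 cells, and the 10% with the highest scores were taken.

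Clusters were named from marker lists. Macrophage markers had to reach 4 times, and erythroid markers 2 times, the level of cluster 0 of the same library, the B reference for free RNA. Clusters past both limits were EBI-like. Other names needed 3 markers, each in at least 10% of cells and at 2 times or more its level in the other cells. All names but RPM-like, EBI-like and erythroid-like also needed at least 1 marker among the 10 leading genes. A first clustering was known when these limits were chosen.

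CPM are summed UMIs per 1000000. Intervals are exact Poisson, exact binomial, or conditional binomial for ratios, which were tested on simulated counts. Ratios over all genes needed 100 UMIs, likeness 1000 UMIs and 50 cells a cluster. Thinning drew 1000 UMIs a cell without replacement. With 1 library per condition no test was made. The 8 genes and the lists were chosen with earlier results of these data known. Named were the 8 genes, the 10 genes most like Adgre1, the 3 most like each other gene, and listed genes past 2-fold in RPM-like cells. Of the genes most like Itgal, 1 is not reported here. Vcam1, Hbb-bs, Tln1, Fermt3, Spi1 and clusters described by number were chosen after values had been seen.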

Additional observations from a re-analysis of the deposited data

Results flagged for a closer look

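Itgad went in opposite directions between the libraries in different classes, each by at least 1.5-fold with an interval that left out 0. Its log2 ratio, SCD-labelled over wild-type-labelled library, was 1.0 in RPM-like and 0.80 in EBI-like cells, and -1.26 in Ly6c-high monocyte-like and -0.85 in Ccr7-positive DC-like cells. The difference between the classes was not tested. RPM-like and EBI-like cells came from different clusters in each library. Inside the EBI-like clusters with at least 50 cells in each, Itgad had 0.05 (cluster 5) and -0.51 (cluster 13), and inside the RPM-like cluster 2 it had 0.58. Of the cells of cluster 5, 35.2% in the wild-type-labelled and 76.5% in the SCD-labelled library were marked as doublets, under a different rule in each. In Ly6c-high monocyte-like and Ccr7-positive DC-like cells Vcam1 also went down, from 1866 to 519 CPM and from 2936 to 1036 CPM, and Itgad stood at 54.4 and 54.8 UMIs per 1000 Vcam1 UMIs in the wild-type-labelled library and at 81.8 and 86.2 in the SCD-labelled library.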

How the results depend on the processing

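No paired analysis was possible because each condition has 1 library. Nor can a library be left out. Each value below is set against the 95% counting interval of the value as reported. The log2 ratio of Adgre1 between the libraries stayed below 0 over all kept cells, at -0.44 without doublets, -0.49 with equal weight of cells and -0.36 over all deposited barcodes. In RPM-like cells it stayed above 0, between 0.04 and 0.15 under 9 alternatives, and left its interval with equal weight of cells (0.064), with all variable genes in the clustering (0.059), with total-count size factors (0.048) and with a minimum of 200 genes (0.040). The cause was not tested. The share of cells with an Adgre1 UMI depended on depth by construction. It was 47.4% and 36.3% when thinned to 2000 UMIs and 64.4% and 55.2% without thinning, for the libraries labelled wild-type and SCD. In the SCD-labelled library it was 21.6% with a minimum of 200 genes, 21.4% without doublets and 21.2% over all deposited barcodes. For the other genes in RPM-like cells no ratio changed direction. Itgal ranged from 0.98 to 2.04, Itgam from 0.95 to 2.25 and Itgax from 1.15 to 2.13, again with the cause not tested. Adgre1 in RPM-like cells over the B reference ranged from 8.56 to 9.22 times in the wild-type-labelled library and from 8.53 to 9.28 times in the SCD-labelled library. Counting error limits Itgam and Itgal in RPM-like and erythroid-like cells.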
